A study of Mus musculus with 36 samples.

Results

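Lung lavage macrophages of wild-type (WT) mice at postnatal day (PND) 3 were compared with those of WT mice on the day of birth, PND 0. The members were the 4 pools labelled WT PND 3 and the 3 pools labelled WT PND 0, that is 7 of the 36 arrays of the series, and all 28940 analysed features of the array were tested. Each pool held lavage cells of 3 pups of strain C57Bl/6N Tac in specific-pathogen-free housing, and the pups were the non-transgenic littermates of mice that overexpress Scnn1b in airway club cells. Neither group had a treatment. Granulocytes were removed from both with a Ly-6G antibody before RNA was extracted, 12 ng of RNA entered the amplification, and each pool was measured on 1 Affymetrix Mouse Gene 1.0 ST array. The study names lymphocytes, dendritic cells and epithelial cells as further members of a lavage, and describes them as rare in its preparations. The labels do not say that the pools of an age came from separate litters. A p-value here rests on the spread between samples within the groups of all 36 arrays, and may not cover that between litters.

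Alveolar macrophages descend from fetal monocytes that enter the lung before birth. They take on their adult form in the first days of air breathing, under GM-CSF from the epithelium and autocrine TGF-beta, and then keep their number by division in the airspace. Their main duties are the uptake of spent surfactant lipid, of inhaled particles and of dead cells. At birth the airspace is cleared of liquid and the lung epithelium still matures, so that a lavage on that day can carry cells and secretions of the airway wall.

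Values are deposited log2 intensities, and a difference of 1 is a 2-fold change. They ran between 1.93 and 12.71 in the 7 arrays, and their medians per array lay between 3.72 and 4.04. A mean over a group at or below 4.06, the highest array median of the series, is called near background here, and a change against such a mean is a lower bound. Features were tested with limma over all 36 arrays and called at an adjusted p of 0.05 and 2-fold. A list member or single gene is said to rise or fall where its adjusted p was under 0.05. The spread of a feature in this model is pooled over all groups. Across features the WT PND 0 pools had 1.53 times the model's spread and the WT PND 3 pools 0.859 times. An SE or p-value can thus be too small where the WT PND 0 pools vary. A fit on the 7 arrays alone gave Tcf21 an SE of 0.91 in place of 0.52, but Cxcl15 0.23 in place of 0.37. For 4 pools against 3 the smallest p of an exact test is 0.0571, so none was used for single genes. The WT PND 3 arrays correlated at 0.987 to 0.992 with each other, the WT PND 0 arrays at 0.957 to 0.97, and arrays of the 2 ages at 0.914 to 0.956 (Pearson, across features).

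The markers of the labelled cell type were present in both groups. Over 10 macrophage markers, 5 rose and 1 fell, and their mean lay between 9.71 and 9.83 in the WT PND 3 pools and between 8.44 and 9.07 in the WT PND 0 pools. Csf1r, the receptor for the macrophage growth factor M-CSF, read 9.0, 8.94, 8.91 and 8.9 in the WT PND 3 pools, against 7.87, 7.47 and 6.9 in the WT PND 0 pools. Adgre1, which encodes F4/80, read 9.43, 9.08, 9.09 and 9.11 in the WT PND 3 pools, against 8.08, 7.58 and 6.8 in the WT PND 0 pools. Both rose without overlap of the groups, by 1.53 ± 0.14 and 1.69 ± 0.2 on the log2 scale (SE here and below, adjusted p = 9.5e-10 and 9.17e-08). Cd68 (0.13, adjusted p = 0.286), Mrc1 (0.28, adjusted p = 0.0544), Pparg (0.11, adjusted p = 0.705) and Marco (0.11, adjusted p = 0.831) did not pass. Markers of T cells (2 measured), B cells (2) and mast cells (3) were near background at both ages. All 3 club cell, 3 ciliated cell, 3 alveolar type 2, 3 alveolar type 1 and 4 fibroblast markers fell. Those of fibroblasts and ciliated cells were all near background at PND 3, whereas at PND 0 all 4 fibroblast markers and all but Tekt1 of the ciliated markers lay above it.

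Transcripts of lung epithelium and mesenchyme were thus measured beside those of macrophages at PND 0, and their level moved with age. In the study epithelial cells were not obvious by histology, though a small share was not excluded. It also proposes that epithelium and macrophages share signals of differentiation. Which cells held these transcripts was not tested. The mean of 5 markers, the leukocyte gene Ptprc and the macrophage genes Cd68, Csf1r, Adgre1 and Mrc1, was 10.02 to 10.06 in the WT PND 3 pools, against 9.393, 9.156 and 8.691 in WT PND 0 replicates 1, 2 and 3. Replicate 3 had the lowest of these means and the highest of the alveolar type 1, type 2, ciliated and club cell list means at PND 0. In bulk RNA fewer cells of a type and less RNA per cell cannot be told apart. The comparison was therefore repeated after centring the arrays on these 5 markers, which shifts the median change of all features from its value of 0.002 to -0.958. Among them Ptprc (1.17), Csf1r (1.53) and Adgre1 (1.69) rose, whereas Cd68 (0.13) and Mrc1 (0.28) did not pass. The size of the shift thus depends on the markers chosen. This shift is the same for every feature of a contrast, so that the place of a list relative to all features stays as it was and only its sign against 0 can turn. It was applied to 48 gene lists for processes or cell types, by which the results are described below. After it falls outnumbered rises in every list but mitosis and DNA replication. Without centring, 14.0% of all features rose and 12.0% fell at an adjusted p under 0.05, and the counts of a list stand against these shares.

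A pair of further points touches the results. Xist, which is transcribed from the inactive X chromosome, read 8.39 and 8.10 in WT PND 3 replicates 1 and 4 and 9.78 in WT PND 0 replicate 3, but 3.05 to 3.6 in the other 4 pools, although the study's methods name male mice for the lavage. With Xist as a term in the model 1365 features rose and 1513 fell past both limits, and with the 3 pools left out 1281 rose and 1350 fell. WT PND 3 replicate 1 also stood apart from the other WT PND 3 pools in acute-phase and myeloid genes, as described below. Without it 1388 features rose and 1534 fell.

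Between birth and PND 3, 1370 features rose and 1506 fell past both limits, which is 4.73% and 5.20% of all features. Of these 2876, 2686 had no overlap between the groups (1317 rises and 1369 falls). Among all features every WT PND 3 pool lay above every WT PND 0 pool for 15.1% and below for 12.7%. A fit on the 7 arrays alone kept 2491 of the 2876 at an adjusted p under 0.05. The falls ended at the floor of the array more often than the rises began there: 1200 falls had a PND 3 mean near background, against 198 rises with a PND 0 mean near it, so that these changes are lower bounds. After median centring 2277 features rose and 1187 fell, that is 65.7% rises in place of 47.6%. After centring on the macrophage markers 165 rose and 12221 fell.

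The largest rise was that of Fabp1, the fatty acid-binding protein best known from liver, which read 7.2, 9.7, 9.5 and 9.05 in the WT PND 3 pools, against 3.01, 4.09 and 3.35 in the WT PND 0 pools. It rose by 5.38 ± 0.43 (adjusted p = 3.34e-11), a lower bound, and went on to 9.84 to 10.22 at PND 10 and 11.37 to 11.54 at PND 42. Coro6, a coronin that binds actin, read 6.37, 8.78, 7.72 and 7.69 in the WT PND 3 pools, against 3.55, 3.04 and 3.36 in the WT PND 0 pools (4.33 ± 0.46, adjusted p = 9.76e-09). WT PND 3 replicate 1 was the lowest of its group in both genes, and both rises were larger without it (5.93 and 4.75). Treml4, a TREM-like receptor that binds dead cells, read 8.31, 8.84, 8.74 and 8.71 in the WT PND 3 pools, against 4.55, 4.42 and 4.12 in the WT PND 0 pools (4.29 ± 0.3, adjusted p = 2.33e-12). A gap of over 3 log2 units separated the ages in this gene.

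The next ranks joined receptors, enzymes and a lysosomal channel. Mcoln3, a cation channel of endosomes and lysosomes, read 8.42, 8.43, 8.57 and 8.54 in the WT PND 3 pools, against 6.76, 5.15 and 3.95 in the WT PND 0 pools, so that the WT PND 3 pools were nearly alike while the WT PND 0 pools were spread widely (3.2 ± 0.31, adjusted p = 1.71e-09). Gbgt1, a glycosyltransferase that acts on globoside, showed the same pattern with 8.64, 8.4, 8.41 and 8.58 in the WT PND 3 pools, against 5.37, 6.23 and 3.39 in the WT PND 0 pools (3.51 ± 0.33). Lilra5, an activating leukocyte receptor, read 8.47, 9.09, 9.1 and 8.71 in the WT PND 3 pools, against 5.54, 5.59 and 6.16 in the WT PND 0 pools (3.08 ± 0.26). Clec4e encodes Mincle, a receptor for mycobacterial glycolipid and for dead cells, and read 9.52, 8.21, 8.65 and 8.36 in the WT PND 3 pools, against 6.06, 4.76 and 5.12 in the WT PND 0 pools (3.37 ± 0.38, adjusted p = 3.98e-08). Rnase6, an antimicrobial ribonuclease, read 7.06, 8.43, 8.26 and 8.33 in the WT PND 3 pools, against 5.61, 3.8 and 4.57 in the WT PND 0 pools (3.36 ± 0.34). The groups did not overlap in any of these 5 genes. The remaining genes among the 12 largest rises were Gbp2, Alox5, Ndc80 and Cfb, which are given with their families below.

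The 12 largest falls were mostly genes of epithelium. Agr2, a disulfide isomerase needed to fold mucins, read 4.02, 4.07, 3.77 and 3.48 in the WT PND 3 pools, against 11.2, 11.58 and 11.52 in the WT PND 0 pools (-7.6 ± 0.23, adjusted p = 6.26e-21), at least 194-fold lower at PND 3. Muc5b, the mucin of airway glands and club cells, read 5.16, 4.99, 5.48 and 4.98 in the WT PND 3 pools, against 10.92, 11.97 and 11.85 in the WT PND 0 pools (-6.42 ± 0.27), and Chad, the matrix protein chondroadherin, read 4.01, 4.99, 4.26 and 4.63 in the WT PND 3 pools, against 10.37, 11.0 and 11.49 in the WT PND 0 pools (-6.48 ± 0.24). Lypd2 (-6.04 ± 0.24), Cxcl15 (-5.61 ± 0.37), a chemokine of airway epithelium, Oit1 (-5.55 ± 0.21) and Atp1b1 (-5.29 ± 0.26), the beta subunit of the sodium pump, followed. The simple-epithelial keratins Krt7, Krt8 and Krt18 fell by 5.37, 5.28 and 5.29. Meg3 and Igf2 belong to the imprinted genes below. Every one of these 12 was separated by more than 3 log2 units, and 9 of the 12 were near background at PND 3.

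**Figure D1:**
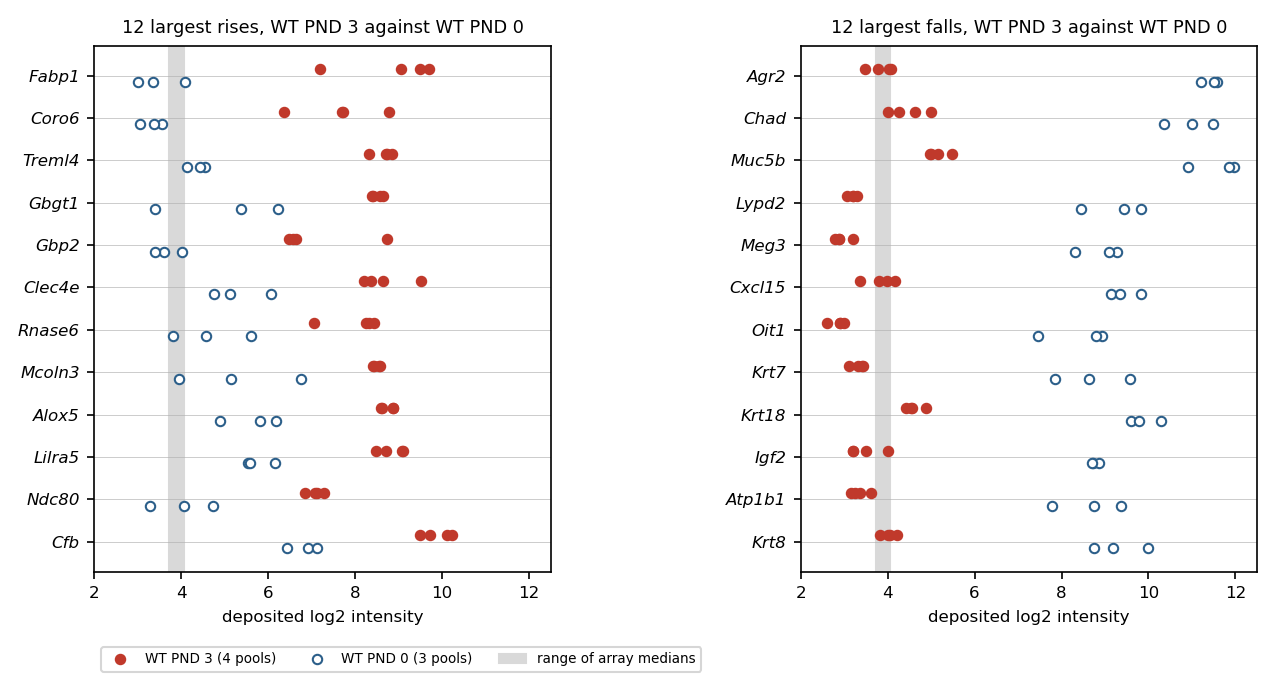
Deposited log2 intensity (x axis) of the 12 genes with the largest rises (left) and falls (right), with 1 point per pool, filled for WT PND 3 (4 pools) and open for WT PND 0 (3 pools), and the range of array medians, 3.72 to 4.06, in grey. No gene has overlapping groups, and 9 of the 12 falls end near background.

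Genes of cell division made up the most uniform rise. Cells duplicate their DNA in S phase with the replication machinery, package it with histones made only in that phase, and then part the copies with the spindle and its kinetochores in mitosis. Of 33 mitosis genes measured, 33 rose and 0 fell, with changes between 0.84 and 3.06 and a median of 1.81 against 0.002 for all features (of which 14.0% rose and 12.0% fell at this limit). After centring on the macrophage markers 25 still rose and 0 fell, with a median of 0.85. Of 36 replication genes 36 rose, between 0.50 and 3.04 with a median of 1.2. After that centring 12 rose and 2 fell (median 0.24). In the fit on the 7 arrays alone 31 and 33 of the 2 lists rose.

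Promoters of these genes were read to see what the members share in sequence. Sequences are those of RefSeq on mouse build GRCm38.p6, from 250 bases before to 50 bases after the annotated start, with motifs searched on both strands. In promoters of mitotic genes the cell cycle genes homology region (CHR, TTTGAA) often follows a CCAAT box, the site of the factor NF-Y. At least 1 promoter was matched for 30 of the 33 mitosis genes (32 promoters), for 30 of the 36 replication genes (35) and for 17 of the 19 histone genes (17). TTTGAA was found in 26 of the 32 mitosis promoters (81.2%), in 9 of the 17 histone promoters (52.9%), in 3 of the 35 replication promoters (8.57%) and in 17.9% of all 32851 promoters of the table. CCAAT was found in 24 mitosis promoters (75.0%), 20 replication promoters (57.1%) and 37.4% of all. An E2F site, searched as TTTGGCGC or TTTCGCGC, was found in 10 replication promoters (28.6%), in 1 mitosis promoter (3.12%) and in 0.813% of all promoters. These are counts of letters in a window and not of bound sites.

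Promoters of mitosis genes with both a CHR and a CCAAT box are shown from 120 bases before to 50 after the start. They run 5′ to 3′ on the gene's own strand, with each TTTGAA and CCAAT, on either strand, in capitals. Genes were taken in order of rise among those with both motifs in this window and a single promoter matched. A chromosome was also left out of the choice, so that a gene with both motifs and a larger rise can be missing. Kif23 and Kif11 encode spindle kinesins and Top2a the topoisomerase that untangles sister chromosomes, and the windows lie at chr9:61946750-61946919 (minus strand), chr19:37376262-37376431 (plus) and chr11:99024140-99024309 (minus).
Kif23: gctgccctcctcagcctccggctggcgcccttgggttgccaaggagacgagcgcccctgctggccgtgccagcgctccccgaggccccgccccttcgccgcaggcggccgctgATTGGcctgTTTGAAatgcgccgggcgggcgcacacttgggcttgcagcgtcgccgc
Kif11: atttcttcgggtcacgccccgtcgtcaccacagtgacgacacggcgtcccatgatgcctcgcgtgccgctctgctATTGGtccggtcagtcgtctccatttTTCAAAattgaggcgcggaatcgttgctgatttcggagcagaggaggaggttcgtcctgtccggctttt
Top2a: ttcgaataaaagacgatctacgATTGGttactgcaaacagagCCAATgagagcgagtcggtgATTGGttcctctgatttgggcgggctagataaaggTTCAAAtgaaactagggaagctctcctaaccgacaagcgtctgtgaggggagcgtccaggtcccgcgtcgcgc
In each, the CHR lies downstream of a CCAAT box, close to the start. Kif23 read 7.64, 7.93, 7.83 and 7.98 in the WT PND 3 pools, against 5.67, 5.14 and 5.8 in the WT PND 0 pools (2.31 ± 0.18, adjusted p = 2.51e-11). Kif11 rose by 2.09 ± 0.21 and Top2a by 2.07 ± 0.19, also without overlap of the groups.

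The largest mitosis rises were those of kinetochore genes. Ndc80, whose protein grips the spindle microtubule, read 7.07, 7.29, 7.12 and 6.85 in the WT PND 3 pools, against 4.05, 3.29 and 4.73 in the WT PND 0 pools (3.06 ± 0.24, adjusted p = 3.07e-11), a lower bound. Its partner Nuf2 read 6.15, 6.29, 6.4 and 6.47 in the WT PND 3 pools, against 4.27, 3.94 and 3.69 in the WT PND 0 pools (2.36 ± 0.19). Bub1, a kinase of the spindle checkpoint, read 7.39, 7.25, 7.32 and 7.6 in the WT PND 3 pools, against 4.93, 4.5 and 5.19 in the WT PND 0 pools (2.51 ± 0.21), and Kif2c, a kinesin that takes microtubules apart, read 6.34, 6.43, 6.11 and 6.68 in the WT PND 3 pools, against 4.02, 3.33 and 4.72 in the WT PND 0 pools (2.37 ± 0.21). In all 4 genes the WT PND 3 pools lay close together and above every WT PND 0 pool.

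Replication genes were chosen by the same rule, with an E2F site in the shorter window, and are shown with E2F sites and CCAAT boxes in capitals. A gene with a site and a larger rise can be missing under this rule. Mcm3 and Mcm6 are subunits of the replicative helicase and Cdt1 loads it, and the windows lie at chr1:20820263-20820432 (minus strand), chr1:128359656-128359825 (minus) and chr8:122567895-122568064 (plus).
Mcm3: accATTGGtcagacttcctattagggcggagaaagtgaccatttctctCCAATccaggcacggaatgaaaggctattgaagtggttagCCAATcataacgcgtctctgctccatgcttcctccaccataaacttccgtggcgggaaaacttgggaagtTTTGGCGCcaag
Mcm6: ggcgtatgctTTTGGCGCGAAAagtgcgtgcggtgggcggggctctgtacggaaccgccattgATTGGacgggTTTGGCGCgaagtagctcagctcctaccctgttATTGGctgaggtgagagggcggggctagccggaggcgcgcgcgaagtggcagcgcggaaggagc
Cdt1: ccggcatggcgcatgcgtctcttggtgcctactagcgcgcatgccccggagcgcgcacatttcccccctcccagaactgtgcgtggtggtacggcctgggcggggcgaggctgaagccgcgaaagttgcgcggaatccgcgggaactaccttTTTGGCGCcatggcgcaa
The run of capitals near the 5′ end of Mcm6 holds a pair of overlapping E2F sites on opposite strands. Mcm3 rose by 1.38 ± 0.16 and Mcm6 by 1.2 ± 0.16 without overlap of the groups. Cdt1 read 6.71, 7.23, 7.37 and 7.28 in the WT PND 3 pools, against 6.62, 6.6 and 5.89 in the WT PND 0 pools (0.78 ± 0.24, adjusted p = 0.0136). The Cdt1 call was lost without WT PND 0 replicate 3 (0.54, adjusted p = 0.153) and in the fit on the 7 arrays (0.0635), and its sign turned after marker centring (-0.18).

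Rrm2, the ribonucleotide reductase subunit that limits the supply of DNA precursors, led the replication list with 8.5, 8.73, 8.82 and 8.62 in the WT PND 3 pools, against 6.05, 5.05 and 5.8 in the WT PND 0 pools (3.04 ± 0.22, adjusted p = 4.49e-12). Uhrf1, which copies DNA methylation, rose by 1.99 ± 0.21, Prim1, the primase, by 1.89 ± 0.3, and Tk1, the thymidine kinase of S phase, by 1.84 ± 0.3. In Tk1 WT PND 0 replicate 3 read 7.15 and the other WT PND 0 pools 5.23 and 5.46, all below the WT PND 3 pools (7.59 to 7.96).

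Of 19 histone genes measured (59.4% of the list) 10 rose and 0 fell, with a median of 0.75, though after marker centring 2 rose and 4 fell (median -0.21). Probes for these transcripts can be shared among near-identical copies, so that the single members are uncertain. H2ac4 read 9.04, 9.05, 9.13 and 9.52 in the WT PND 3 pools, against 7.44, 6.55 and 7.47 in the WT PND 0 pools (2.03 ± 0.33, adjusted p = 1.65e-05), H2bc14 rose by 1.66 ± 0.25, H2bc3 by 1.59 ± 0.29 and H1f5, a linker histone, by 1.47 ± 0.21. CCAAT was found in 15 of 17 histone promoters (88.2%) and TATAAA in 11 (64.7%), against 37.4% and 13.6% of all promoters. A pair of adjacent examples at chr13:23750968-23751137 and chr13:23746614-23746783 (both plus strand) has CCAAT boxes as well as each TATAAA and each TTTGAA in capitals.
H2ac4: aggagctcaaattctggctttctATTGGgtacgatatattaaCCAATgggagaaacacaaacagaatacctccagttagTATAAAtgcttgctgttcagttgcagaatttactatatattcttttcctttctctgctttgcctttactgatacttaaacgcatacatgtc
H2bc3: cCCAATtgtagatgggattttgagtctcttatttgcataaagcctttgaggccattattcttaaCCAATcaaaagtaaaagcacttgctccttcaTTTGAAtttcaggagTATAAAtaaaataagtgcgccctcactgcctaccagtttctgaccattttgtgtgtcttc
Both have a pair of CCAAT boxes upstream of the TATA box.

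The identity genes of alveolar macrophages moved in both directions. Of 33 measured, 16 rose and 3 fell (median 0.41), while after marker centring 7 rose and 20 fell (median -0.55). Siglecf, the sialic acid-binding receptor that marks these cells in mice, read 8.55, 9.36, 9.36 and 9.24 in the WT PND 3 pools, against 6.66, 6.32 and 5.73 in the WT PND 0 pools (2.89 ± 0.21, adjusted p = 7.93e-12), and Itgax, which encodes CD11c, read 9.73, 10.04, 10.18 and 10.26 in the WT PND 3 pools, against 7.65, 7.64 and 7.4 in the WT PND 0 pools (2.49 ± 0.19, adjusted p = 9.69e-12). Both stayed up by more than 1 after marker centring (1.93 and 1.53). Ctsk, the collagen-degrading cathepsin K, rose by 1.94 ± 0.27. Car4, a carbonic anhydrase, read 10.79, 11.05, 10.97 and 10.96 in the WT PND 3 pools, against 11.4, 11.44 and 11.24 in the WT PND 0 pools and was thus high at both ages (-0.42 ± 0.1, adjusted p = 0.00227). Fabp5 fell by 0.62 and Fabp4, the fatty acid-binding protein of fat cells and macrophages, by 2.28, with 6.52, 6.74, 6.29 and 6.42 in the WT PND 3 pools, against 9.31, 8.7 and 8.3 in the WT PND 0 pools. Fabp1 and Fabp4 thus moved in opposite directions.

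GM-CSF and TGF-beta signalling genes moved in both directions. Of 23, 7 rose and 7 fell (median -0.07). The receptor chains Csf2rb2 (1.63 ± 0.22), Csf2ra (1.01 ± 0.16) and Tgfbr1 (1.08 ± 0.11) and the GM-CSF signal transducer Stat5b (1.07 ± 0.17) rose. Csf2ra read 9.62, 9.68, 9.59 and 9.55 in the WT PND 3 pools, against 8.88, 8.8 and 8.12 in the WT PND 0 pools, and Tgfbr1 read 9.49, 9.7, 9.45 and 9.51 in the WT PND 3 pools, against 8.58, 8.44 and 8.34 in the WT PND 0 pools, both without overlap. Smad3, which carries the TGF-beta signal to the nucleus, fell by 1.39, the ligand Tgfb3 by 1.32, Itgb6, the epithelial integrin chain that activates TGF-beta, by 1.1, and the inhibitor Smad7 by 0.98. The other falls were those of Csf2, Tgfb2 and Smad4, whereas Tgfb1 (0.375, adjusted p = 0.0789) and Smad2 (0.199, adjusted p = 0.332) did not pass. Smad3, Tgfb3, Itgb6 and Smad7 were near background at PND 3, and the fall of Smad7 was lost without WT PND 0 replicate 3 (-0.58, adjusted p = 0.112). After marker centring 1 of the 23 rose and 17 fell.

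Lysosomal genes rose by small amounts. Of 38 measured 25 rose and 0 fell, with a median of 0.43, but only 5 reached 2-fold. In the 7-array fit 15 rose, and after marker centring 4 rose and 26 fell (median -0.53). The list mean was 9.33 to 9.52 in the WT PND 3 pools and 8.54 to 9.04 in the WT PND 0 pools. Acp5, the tartrate-resistant acid phosphatase, read 10.19, 9.89, 9.91 and 10.05 in the WT PND 3 pools, against 8.13, 7.56 and 7.75 in the WT PND 0 pools (2.2 ± 0.2, adjusted p = 8.75e-10). Arsb, which degrades dermatan sulfate, read 8.39, 8.23, 8.34 and 8.18 in the WT PND 3 pools, against 6.21, 6.45 and 6.53 in the WT PND 0 pools (1.89 ± 0.13, adjusted p = 3.16e-12), and Man2b1, the lysosomal mannosidase, rose by 1.39 ± 0.11. These 3 stayed up after marker centring (1.24, 0.93 and 0.43).

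Among 27 genes of surfactant lipid uptake and cholesterol efflux 15 rose and 3 fell (median 0.34), and after marker centring 1 rose and 18 fell (median -0.62). The gene that rose under both was Abca1, the pump that exports cholesterol, which read 7.58, 6.61, 6.88 and 6.69 in the WT PND 3 pools, against 4.79, 4.77 and 5.03 in the WT PND 0 pools (2.08 ± 0.19, adjusted p = 5.79e-10). Pla2g15, the lysosomal phospholipase of surfactant breakdown, rose by 1.17 ± 0.26, with WT PND 3 replicate 1 at 8.43 below the other WT PND 3 pools (9.20 to 9.25). Gm2a rose by 0.96 ± 0.13 and Lipa, the lysosomal lipase, by 0.93 ± 0.12 (-0.03 after marker centring). Smpd1, the acid sphingomyelinase, fell by 0.51, and this was lost without WT PND 0 replicate 2 (-0.34, adjusted p = 0.141).

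Fatty acid oxidation and peroxisome genes numbered 12 rises and 1 fall among 27 (median 0.31, against 2 rises and 17 falls after marker centring). Hsd17b4, the bifunctional peroxisomal enzyme, read 8.59, 8.81, 8.72 and 8.57 in the WT PND 3 pools, against 7.45, 6.97 and 6.91 in the WT PND 0 pools (1.57 ± 0.12, adjusted p = 6.9e-12). Ehhadh (1.68 ± 0.3), Acaa1a (1.22 ± 0.16) and Cat, catalase (1.07 ± 0.22), rose with it. Of 29 genes of cholesterol and fatty acid synthesis 8 rose and 3 fell (median 0.23), but after marker centring 0 rose and 23 fell. Fatty acid synthase, Fasn, read 5.86, 5.85, 5.98 and 5.69 in the WT PND 3 pools, against 7.0, 7.06 and 7.46 in the WT PND 0 pools (-1.33 ± 0.16, adjusted p = 1.77e-07), and Scd1, the stearoyl desaturase, fell by 3.24. Fads1, a desaturase, rose by 1.26 ± 0.26. Rises of Fdft1 (0.87 ± 0.23) and Cyp51 (0.86 ± 0.24), both of cholesterol synthesis, were lost without WT PND 0 replicate 3 (0.59 and 0.49).

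Receptors for clearance rose in part. Of 31 phagocytic and scavenger receptors 14 rose and 2 fell (median 0.28), against 7 and 17 after marker centring. Itgb5, whose integrin binds dying cells, read 8.47, 8.28, 8.31 and 8.31 in the WT PND 3 pools, against 6.42, 6.53 and 5.62 in the WT PND 0 pools (2.15 ± 0.17, adjusted p = 4.3e-11). Fcgr1, the high-affinity receptor for IgG, rose by 2.08 ± 0.3 and Trem2, a lipid-sensing receptor, by 1.56 ± 0.15 with 8.59, 8.47, 8.51 and 8.83 in the WT PND 3 pools, against 7.35, 6.96 and 6.81 in the WT PND 0 pools. Gas6, the bridge between dying cells and TAM receptors, fell by 2.59, and the TAM receptor Tyro3 by 1.41, both to near background.

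Leukotriene and prostaglandin genes had 11 rises and 1 fall among 21 (median 0.86, and 5 and 7 with a median of -0.10 after marker centring). Alox5, the 5-lipoxygenase that begins leukotriene synthesis, read 8.6, 8.88, 8.87 and 8.63 in the WT PND 3 pools, against 6.19, 5.81 and 4.89 in the WT PND 0 pools (3.12 ± 0.2, adjusted p = 5.05e-13). It stayed at 8.92 to 9.08 at PND 10 and 9.68 to 9.86 at PND 42. Ptger2, a receptor for prostaglandin E2, read 6.8, 6.7, 6.54 and 6.87 in the WT PND 3 pools, against 5.47, 5.19 and 4.27 in the WT PND 0 pools (1.75 ± 0.24), and Lpcat2, which makes platelet-activating factor, 7.56, 6.43, 6.45 and 6.86 in the WT PND 3 pools, against 4.68, 5.12 and 5.06 in the WT PND 0 pools (1.87 ± 0.26). Pla2g7, which breaks that factor down, rose by 1.87 ± 0.49, but with an adjusted p of 0.0603 in the 7-array fit.

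**Figure D2:**
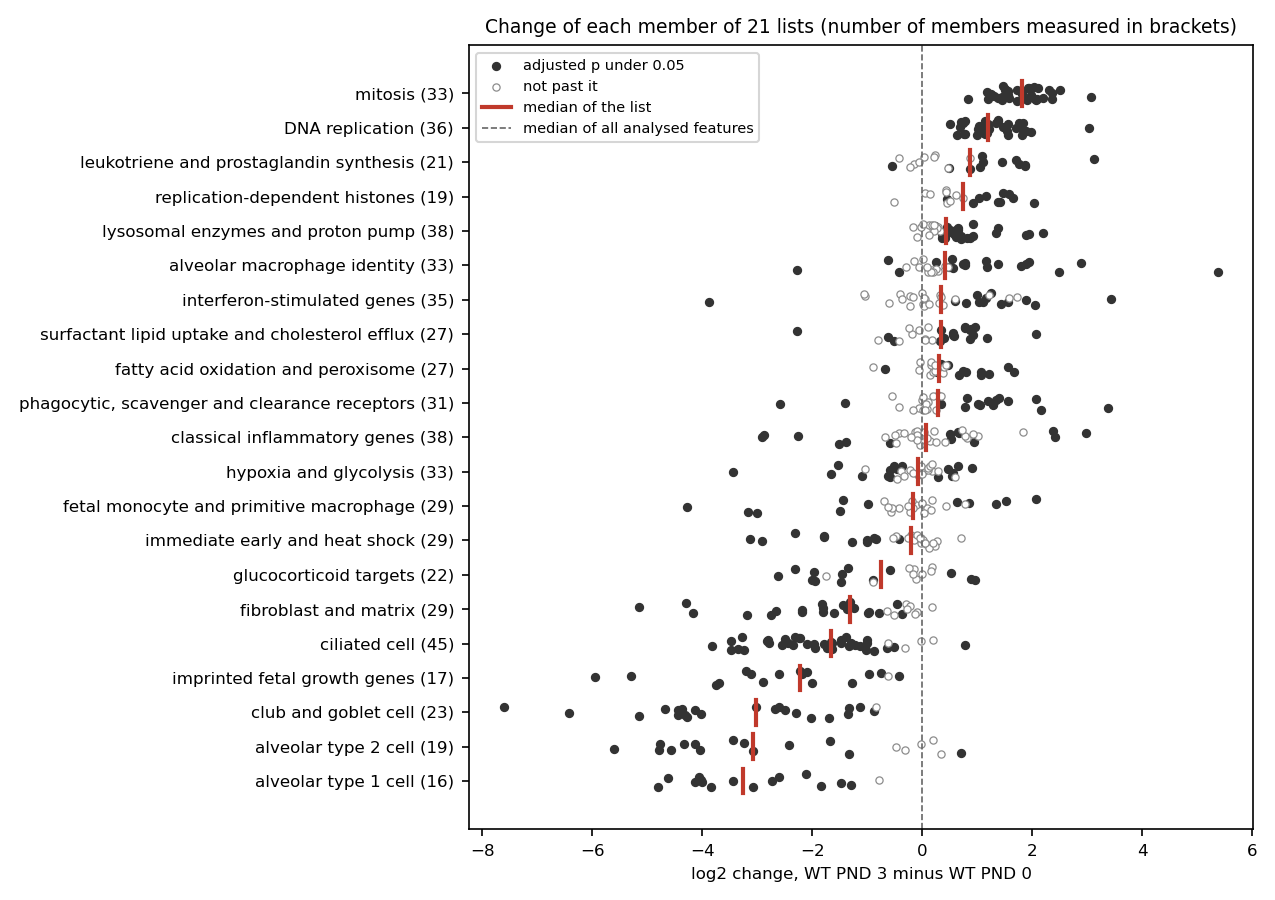
Log2 change, WT PND 3 minus WT PND 0 (x axis), of each measured member of 21 lists (rows, number of members in brackets), filled where the adjusted p was under 0.05, with each list's median as a red bar and the median of all features, 0.002, dashed. Medians run between 1.81 for mitosis and -3.26 for alveolar type 1 cell genes. After centring on 5 macrophage markers every change shifts down alike, and of the positive medians those of mitosis (0.85) and DNA replication (0.24) alone stay above 0.

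Interferon-stimulated genes had 12 rises and 1 fall among 35 (median 0.35), and after marker centring 4 and 17 (median -0.61). Parp14 read 6.71, 6.39, 6.15 and 6.62 in the WT PND 3 pools, against 4.92, 4.21 and 4.12 in the WT PND 0 pools (2.05 ± 0.17, adjusted p = 7e-11), Trim30a read 7.95, 7.94, 7.85 and 8.26 in the WT PND 3 pools, against 6.56, 6.28 and 5.47 in the WT PND 0 pools (1.9 ± 0.2), and Stat2, a subunit of the factor that interferon activates, rose by 1.57 ± 0.21. These 3 had no overlap and no pool apart. Gbp2, an interferon-induced GTPase, rose by 3.43 ± 0.43, but with 8.73 in WT PND 3 replicate 1 against 6.47 to 6.64 in the other WT PND 3 pools and 3.39 to 4.02 at PND 0, and by 2.89 without that pool. Ifitm3, an antiviral membrane protein, went the other way, with 8.2, 4.36, 3.86 and 5.28 in the WT PND 3 pools, against 8.28, 9.9 and 9.72 in the WT PND 0 pools (-3.87 ± 0.74, adjusted p = 0.000141, and -4.8 without WT PND 3 replicate 1). The list mean of WT PND 3 replicate 1 was 5.61, against 4.82 to 4.98 in the other WT PND 3 pools and 4.43 to 4.81 at PND 0.

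Classical inflammatory genes were split, with 8 rises and 6 falls among 38 (median 0.06). Without WT PND 3 replicate 1 there were 6 rises and 9 falls, and after marker centring 3 and 25. Slc7a11, the cystine transporter, read 9.18, 7.72, 8.07 and 8.15 in the WT PND 3 pools, against 5.71, 6.08 and 5.81 in the WT PND 0 pools (2.41 ± 0.32, adjusted p = 5.73e-07), and the chemokine Ccl5 read 7.3, 6.19, 6.94 and 7.23 in the WT PND 3 pools, against 4.42, 4.63 and 4.57 in the WT PND 0 pools (2.38 ± 0.4). Acod1, which makes itaconate, rose by 2.97 ± 0.58 (8.95, 4.61, 6.26 and 5.73 in the WT PND 3 pools, against 3.14, 3.71 and 3.39 in the WT PND 0 pools). Ier3, an early response gene, read 6.75, 4.65, 5.62 and 5.51 in the WT PND 3 pools, against 8.55, 8.82 and 8.28 in the WT PND 0 pools (-2.92 ± 0.43, adjusted p = 3.87e-06), and Socs3, the feedback inhibitor of cytokine signalling, fell by 1.52. Thbs1 (thrombospondin) and the chemokine Ccl2 fell by 2.87 and 2.27, and by 3.72 and 2.80 without WT PND 3 replicate 1. In the 7-array fit Acod1, Thbs1 and Ccl2 missed the threshold (adjusted p = 0.0688, 0.06 and 0.0709). Il1a rose by 0.94 ± 0.32, which was lost without WT PND 3 replicate 1 (0.75, adjusted p = 0.118) or WT PND 0 replicate 3 (0.53).

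WT PND 3 replicate 1 stood apart in genes of these kinds. Saa3, an acute-phase protein of the lung, read 9.15 in it and 4.22 to 4.52 in the other WT PND 3 pools, against 2.94 to 4.63 at PND 0, and S100a9, a calcium-binding protein of neutrophils and monocytes, read 10.85 against 6.10 to 8.29 in the other WT PND 3 pools. Lcn2, a siderophore-binding protein of neutrophils and epithelium, read 8.99, 4.18, 3.69 and 5.3 in the WT PND 3 pools, against 6.28, 6.84 and 8.78 in the WT PND 0 pools. It did not pass over all pools (-1.76, adjusted p = 0.0935), and it fell by 2.91 without that pool (adjusted p = 0.000189). The mean of 23 neutrophil genes was 6.13 in replicate 1, against 4.83 to 5.04 in the other WT PND 3 pools and 5.36 to 5.55 in the WT PND 0 pools. The neutrophil markers Retnlg, Elane and Mpo were near background at both ages. Saa3, Lcn2 and Xist were chosen after their values were seen.

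**Figure D3:**
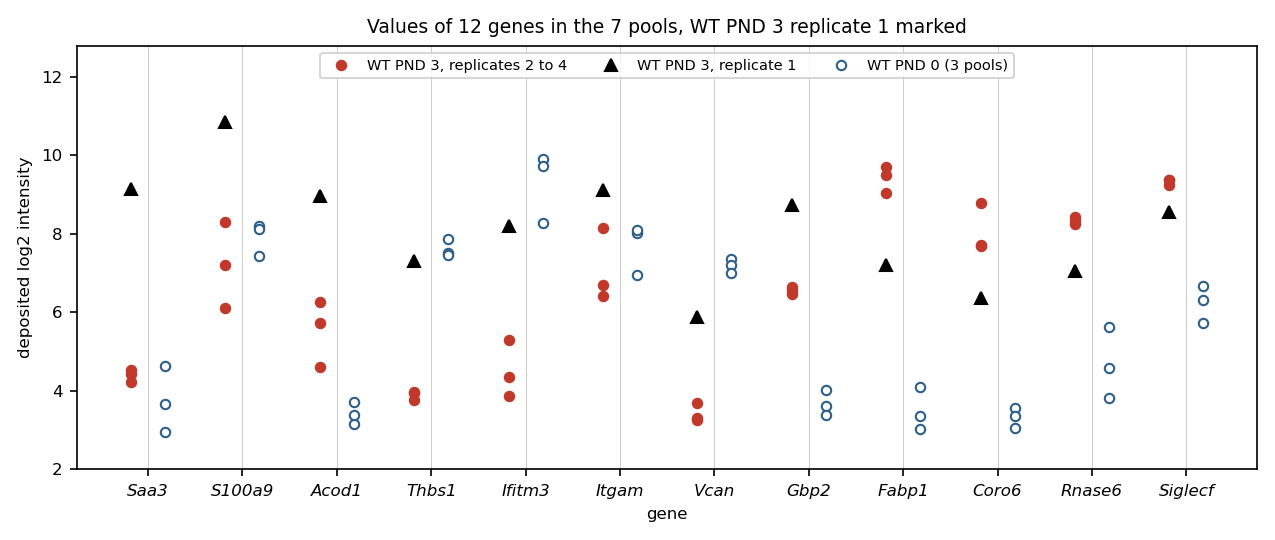
Deposited log2 intensity (y axis) of 12 genes (x axis) in WT PND 3 replicate 1 (triangle), WT PND 3 replicates 2 to 4 (filled circles) and the 3 WT PND 0 pools (open circles), for genes chosen after their values were seen. Replicate 1 was above the other WT PND 3 pools in the 8 genes on the left, for example 9.15 in Saa3, and below them in the 4 on the right, for example 7.20 in Fabp1.

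Of the other granulocyte and monocyte markers, Csf3r, the G-CSF receptor, read 8.04, 7.89, 7.78 and 7.75 in the WT PND 3 pools, against 5.61, 5.21 and 4.98 in the WT PND 0 pools (2.6 ± 0.29, adjusted p = 3.53e-08), and the chemokine receptor Cxcr2 read 7.1, 7.33, 7.3 and 7.22 in the WT PND 3 pools, against 4.98, 4.8 and 6.03 in the WT PND 0 pools (1.97 ± 0.39). Both were high in all 4 WT PND 3 pools. S100a8 (-0.32, adjusted p = 0.574), S100a9 (0.2, adjusted p = 0.923) and Itgam (-0.1, adjusted p = 0.92), which encodes CD11b, did not pass. Among 29 fetal monocyte and primitive macrophage genes 5 rose (17.2%) and 6 fell (20.7%), against 14.0% and 12.0% of all features (median -0.16). After marker centring 2 rose and 22 fell. F13a1, a clotting factor of monocytes, read 3.89, 3.24, 3.07 and 3.32 in the WT PND 3 pools, against 6.88, 5.79 and 6.48 in the WT PND 0 pools (-3.0 ± 0.33, adjusted p = 2.77e-08), and Vcan, the versican core protein, 5.87, 3.29, 3.25 and 3.68 in the WT PND 3 pools, against 7.36, 7.21 and 7.0 in the WT PND 0 pools (-3.17 ± 0.44), with WT PND 3 replicate 1 the highest of its group in both. Cbr2, a carbonyl reductase of lung, fell by 4.27. Pf4 fell by 1.5 and lost its call without any 1 of 5 pools, down to -0.76 without WT PND 0 replicate 2. Igf1 rose by 1.34 ± 0.37, which was lost without WT PND 0 replicate 3 (1.12, adjusted p = 0.056). The monocyte chemokine receptor Ccr2 rose by 0.63 ± 0.21 and was lost without WT PND 3 replicate 3 (0.49) or WT PND 0 replicate 3 (0.47), with -0.33 after marker centring.

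Complement genes had 5 rises (27.8%) and 3 falls (16.7%) among 18, against 14.0% and 12.0% of all features. After marker centring there were 2 rises and 12 falls. Cfb, factor B of the alternative pathway, read 10.23, 9.49, 9.72 and 10.11 in the WT PND 3 pools, against 6.44, 6.92 and 7.12 in the WT PND 0 pools (3.06 ± 0.17, adjusted p = 7.68e-15), and was the rise with the smallest adjusted p of the 12 largest. Cfp, properdin, which steadies the same pathway's convertase, rose by 1.44 ± 0.29, and C5ar1, the receptor for C5a, by 1.66 ± 0.37. The rise of C2 (1.28 ± 0.33) missed the threshold in the 7-array fit (0.0779). Hc, which encodes C5, fell by 2.27 and the membrane inhibitor Cd55 by 2.22, both to near background, as did the plasma inhibitor Serping1 (-1.74 ± 0.32, 0.0723 in the 7-array fit).

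Antigen presentation genes rose in part. Of 14 genes in the list of class II presentation, Cd80 among them, 5 rose and 0 fell (median 0.12, with 1 and 9 after marker centring). In the 7-array fit 4 rose. H2-Oa, a chain that modulates peptide loading, read 5.88, 6.88, 6.61 and 6.36 in the WT PND 3 pools, against 4.37, 3.81 and 3.63 in the WT PND 0 pools (2.5 ± 0.31, adjusted p = 1.58e-07), and H2-DMa, the loading chaperone, rose by 1.13 ± 0.26. Cd80, a costimulator, rose by 1.13 ± 0.27, with an adjusted p of 0.105 in the 7-array fit. Of 21 alternative activation genes 2 rose (9.52%) and 4 fell (19%), against 14.0% and 12.0% of all features. After marker centring 1 rose and 14 fell. Pdcd1lg2, which encodes PD-L2, read 5.51, 5.95, 5.73 and 6.1 in the WT PND 3 pools, against 3.25, 4.33 and 3.89 in the WT PND 0 pools (2.0 ± 0.34), and Chil3, which encodes the chitinase-like Ym1, read 11.34, 10.21, 10.13 and 10.34 in the WT PND 3 pools, against 9.33, 9.78 and 8.92 in the WT PND 0 pools (1.16 ± 0.22, 0.0552 in the 7-array fit). The chemokine Ccl17 read 6.92, 7.66, 6.16 and 5.55 in the WT PND 3 pools, against 10.01, 10.17 and 9.67 in the WT PND 0 pools (-3.38 ± 0.68, adjusted p = 0.000244), and Retnla fell by 2.96 to near background.

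Stress genes that answer to hormones, low oxygen and handling were higher at birth in part. Of 22 glucocorticoid targets 3 rose and 10 fell (median -0.74). Zbtb16 (PLZF) read 3.35, 3.22, 3.12 and 3.14 in the WT PND 3 pools, against 5.65, 5.81 and 6.04 in the WT PND 0 pools (-2.62 ± 0.22, adjusted p = 8.11e-11), Dusp1, a phosphatase that ends MAP kinase signals, read 7.04, 6.8, 6.86 and 6.54 in the WT PND 3 pools, against 9.22, 9.17 and 9.0 in the WT PND 0 pools (-2.32 ± 0.44), and Errfi1 fell by 2.01. Mt2, a metallothionein, read 11.15, 11.31, 11.55 and 11.28 in the WT PND 3 pools, against 10.26, 10.44 and 10.38 in the WT PND 0 pools (0.96 ± 0.15) against this trend. Thbd rose by 0.88 ± 0.26, which was lost without WT PND 0 replicate 2 (0.78, adjusted p = 0.0507). Of 29 immediate early and heat shock genes 0 rose and 11 fell (median -0.21). Egr1 read 5.1, 4.54, 4.41 and 4.1 in the WT PND 3 pools, against 6.48, 6.3 and 6.19 in the WT PND 0 pools (-1.79 ± 0.23, adjusted p = 4.42e-07), and the small heat shock protein Hspb1 fell by 3.13 to near background.

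Hypoxia and glycolysis genes had 6 rises and 10 falls among 33 (median -0.08, with 0 and 30 after marker centring). Vegfa, the vessel growth factor that low oxygen induces, read 3.77, 3.61, 3.32 and 3.71 in the WT PND 3 pools, against 6.48, 7.35 and 7.27 in the WT PND 0 pools (-3.43 ± 0.2, adjusted p = 5.98e-14). Its receptor Flt1 moved the opposite way, with 6.2, 7.36, 7.46 and 6.99 in the WT PND 3 pools, against 4.71, 4.23 and 4.33 in the WT PND 0 pools (2.58 ± 0.23, adjusted p = 2.59e-10), and stood at 8.66 to 9.05 at PND 42. Ndrg1 (-1.65 ± 0.24) and Hilpda (-1.52 ± 0.37), also oxygen-regulated, fell, and Adm, adrenomedullin, read 2.53, 2.58, 2.64 and 2.74 in the WT PND 3 pools, against 3.75, 3.91 and 3.49 in the WT PND 0 pools, near background at both ages (-1.09 ± 0.1). Slc16a3, the lactate exporter, rose by 0.9 ± 0.15, with -0.06 after marker centring.

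Iron and haem genes had 8 rises and 3 falls among 25. Hfe, a regulator of iron uptake, read 6.35, 6.09, 6.0 and 6.1 in the WT PND 3 pools, against 4.69, 4.33 and 4.33 in the WT PND 0 pools (1.68 ± 0.22, adjusted p = 3.92e-07), and Slc48a1, the haem transporter of the phagolysosome, read 8.9, 9.46, 9.33 and 9.34 in the WT PND 3 pools, against 8.1, 8.03 and 7.6 in the WT PND 0 pools (1.35 ± 0.32). Slc40a1, the iron exporter ferroportin, rose by 1.2 ± 0.41 and lost its call without any 1 of 5 pools (1.05 without WT PND 0 replicate 3). Ltf, lactoferrin, read 3.6, 3.71, 3.98 and 3.6 in the WT PND 3 pools, against 8.23, 9.37 and 9.03 in the WT PND 0 pools (-5.16 ± 0.22, adjusted p = 4.5e-17), and Cp, ceruloplasmin, fell by 3.65, both secreted proteins. A change of -5.16 was also the lowest of the neutrophil and of the milk protein list. The red cell gene Slc4a1 rose by 2.34 ± 0.8, a call lost without WT PND 3 replicate 2 or 3 or WT PND 0 replicate 1 or 3 (2.08 to 2.30). Alas2, the haem synthesis enzyme of red cells, read 8.11, 8.38, 8.43 and 7.88 in the WT PND 3 pools, against 5.98, 6.78 and 6.5 in the WT PND 0 pools and did not pass in the model of all arrays (1.78 ± 0.93, adjusted p = 0.179) but did in that of the 7 (0.00216). Of 23 erythroid genes 1 rose and 0 fell.

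NRF2 targets had 12 rises and 5 falls among 27. Gstm1, a glutathione transferase, read 10.01, 10.24, 10.43 and 10.4 in the WT PND 3 pools, against 9.06, 9.09 and 9.09 in the WT PND 0 pools (1.19 ± 0.16, adjusted p = 5.79e-07). The transferase Gsta3 (-2.11 ± 0.24) and malic enzyme Me1 (-2.34 ± 0.34) fell to near background, and Gclc, the limiting enzyme of glutathione synthesis, fell by 1.22. Of 20 matrix metalloproteinases and inhibitors 0 rose and 7 fell. Mmp19 read 8.93, 7.94, 7.84 and 8.28 in the WT PND 3 pools, against 10.69, 10.54 and 10.4 in the WT PND 0 pools (-2.29 ± 0.23, adjusted p = 3.4e-09), Timp3 fell by 5.23 and Mmp2 by 1.64. Housekeeping lists had few calls, with 0 rises and 3 falls among 29 ribosomal protein genes (between -0.38 and 0.27) and 4 rises and 1 fall among 38 genes of oxidative phosphorylation (between -0.51 and 0.82).

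Imprinted genes of fetal growth fell almost as one. Most are expressed from 1 parental copy, and many bear on growth before birth and are silenced in many tissues afterwards. Of 17 measured, 0 rose and 16 fell, with changes between -5.96 and -0.42 and a median of -2.23. Meg3, a maternally expressed noncoding RNA, read 3.19, 2.79, 2.88 and 2.88 in the WT PND 3 pools, against 8.31, 9.28 and 9.09 in the WT PND 0 pools (-5.96 ± 0.21, adjusted p = 5.44e-19). Igf2, the fetal growth factor, read 3.2, 3.2, 4.0 and 3.49 in the WT PND 3 pools, against 8.72, 8.86 and 8.71 in the WT PND 0 pools (-5.29 ± 0.19, adjusted p = 6.99e-19). Peg3 fell by 3.69 and Gpc3, the X-linked glypican kept in this list, by 3.76. All 4 were near background at PND 3. The list mean was 3.24 to 3.46 in the WT PND 3 pools, against 5.69 to 6.08 in the WT PND 0 pools, and fibroblast and epithelial genes, whose cells use several of these genes, fell beside it. Their part in this fall was not tested.

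Epithelial genes fell in each of 5 lists, and the club, type 1 and type 2 lists had the lowest medians of the 48. Of 23 club and goblet cell genes 0 rose and 22 fell (median -3.02), of 16 alveolar type 1 genes 0 and 15 (-3.26), of 19 alveolar type 2 genes 1 and 13 (-3.07), of 45 ciliated cell genes 1 and 40 (-1.66) and of 26 squamous and basal genes 0 and 13 (-0.47). Sftpc, the surfactant protein made by type 2 cells alone, read 5.73, 6.86, 7.83 and 7.51 in the WT PND 3 pools, against 11.16, 11.19 and 11.61 in the WT PND 0 pools (-4.34 ± 0.42, adjusted p = 1.71e-09). Scgb1a1, which club cells secrete, read 8.93, 9.2, 9.51 and 8.95 in the WT PND 3 pools, against 11.37, 11.59 and 11.96 in the WT PND 0 pools (-2.49 ± 0.46), and so remained well above background at PND 3. Sftpb (-4.77 ± 0.3), Sftpa1 (-4.57 ± 0.27) and the phosphate transporter Slc34a2 (-4.78 ± 0.31) fell to near background.

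The type 1 genes Gprc5a (-4.8 ± 0.23), Emp2 (-4.62 ± 0.29), Sec14l3 (-4.13 ± 0.28) and Cldn18 (-4.06 ± 0.26), a tight junction protein, and the club cell enzyme Cyp2f2 (-4.69 ± 0.34) fell without overlap. Foxj1, which directs the making of motile cilia, read 3.47, 3.97, 3.74 and 3.64 in the WT PND 3 pools, against 4.04, 5.4 and 5.65 in the WT PND 0 pools (-1.33 ± 0.26), and the cilium genes Dnah12 (-3.83 ± 0.3), Tmem212 (-3.48 ± 0.3) and Cfap43 (-3.47 ± 0.26) fell further. Krt15 (-4.87 ± 0.25), Sfn (-2.75 ± 0.32) and Sprr1a (-2.5 ± 0.33) led the squamous and basal list. In most of these genes WT PND 0 replicate 3 was the highest pool, and in Dnah12 the WT PND 0 pools read 5.67, 6.72 and 7.33.

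Mesenchymal genes fell too. Of 29 fibroblast and matrix genes 0 rose and 21 fell (median -1.31). Tcf21, a regulator of lung mesenchyme, read 2.77, 3.32, 2.87 and 2.81 in the WT PND 3 pools, against 5.62, 8.69 and 9.98 in the WT PND 0 pools, so that the WT PND 0 pools differed by over 4 log2 units (-5.15 ± 0.52, adjusted p = 4.19e-09). Sparc, a matrix glycoprotein, read 5.78, 6.12, 5.74 and 5.62 in the WT PND 3 pools, against 9.9, 10.15 and 10.25 in the WT PND 0 pools (-4.29 ± 0.24), and the proteoglycan Bgn and elastin, Eln, fell by 4.17 and 3.19. Of 14 smooth muscle genes 6 fell and 0 rose. Cardiac (2 falls of 15), neural (2 of 15) and skeletal muscle genes (1 rise and 3 falls of 40), liver and plasma proteins (1 fall of 19), milk proteins (1 of 11) and thyroid genes (0 of 9) hardly moved, with list medians between -0.22 and 0.08.

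Leukocyte and endothelial lists held single genes that changed. The shares called in them were near or below those of all features, of which 14.0% rose and 12.0% fell at an adjusted p under 0.05. Of 23 T and NK cell genes 1 rose and 1 fell. Cd2 read 8.9, 9.33, 9.29 and 9.12 in the WT PND 3 pools, against 7.29, 7.5 and 6.68 in the WT PND 0 pools (2.0 ± 0.25, adjusted p = 2.61e-07) and was at 10.52 to 10.63 at PND 42, while Cd3e and Cd3g were near background at both ages. Il7r, the interleukin 7 receptor that fetal monocytes also carry, fell by 1.69 (0.078 in the 7-array fit). Of 17 B cell genes 3 rose and 1 fell. Cd22 rose by 1.69 ± 0.17 and Cd37 by 1.01 ± 0.26 (0.63 and lost without WT PND 0 replicate 3), and the pre-B cell gene Vpreb3 fell by 1.8. The B cell marker Ms4a1 (CD20) was the other rise (0.443 ± 0.166, adjusted p = 0.0475) and Cd79a did not pass (0.129, adjusted p = 0.88), with the means of both near background at both ages. Of 15 dendritic cell genes 2 rose and 2 fell: Irf8, a regulator of macrophage and dendritic lineages, read 7.61, 7.63, 7.79 and 7.77 in the WT PND 3 pools, against 6.49, 5.52 and 4.99 in the WT PND 0 pools (2.03 ± 0.23, adjusted p = 4.47e-08), Ly75 rose by 1.42 ± 0.23, Tcf4 fell by 1.34 and Fscn1 by 1.39 (lost without WT PND 0 replicate 1, -0.94). Of 22 endothelial genes 3 rose and 3 fell, with Flt1, Calcrl (1.93 ± 0.33) and Vwf (1.7 ± 0.16) up. The falls were those of the endothelial markers Pecam1 (-1.04, adjusted p = 0.0146) and Kdr (-0.613, adjusted p = 0.0124) and of Tie1 (-0.344, adjusted p = 0.0232), and these and Cdh5 were near background at PND 3. Platelet (1 rise and 1 fall of 12), mast cell (1 and 2 of 15) and eosinophil genes (1 rise of 8) moved little, and the eosinophil rise was that of Siglecf.

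At later ages most of these levels were kept. Of the 1370 rises, 1072 (78.2%) were still at least 2-fold above the PND 0 mean at PND 10 and 1027 (75%) at PND 42. Of the 1506 falls 1383 (91.8%) and 1374 (91.2%) were still at least 2-fold below it. The PND 0 mean takes part in both comparisons, so these shares are descriptions. Few features turned back by 2-fold from the PND 3 mean: 21 rises and 7 falls by PND 10, and 68 rises and 35 falls by PND 42. Mitosis genes had list means of 4.92 to 5.46 at PND 0, 6.97 to 7.12 at PND 3, 6.85 to 7.34 at PND 10 and 6.14 to 6.49 at PND 42. Identity genes had list means of 8.18 to 8.61, 9.07 to 9.22, 9.21 to 9.44 and 9.47 to 9.54 at these ages, with overlap between PND 3 and PND 10. Steps after PND 3 were not tested. Chil3 read 11.69 to 12.31 at PND 10 and 12.11 to 12.29 at PND 42, above all WT PND 3 pools. Trem2 was lower again at PND 42, at 7.24 to 7.41.

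**Figure D4:**
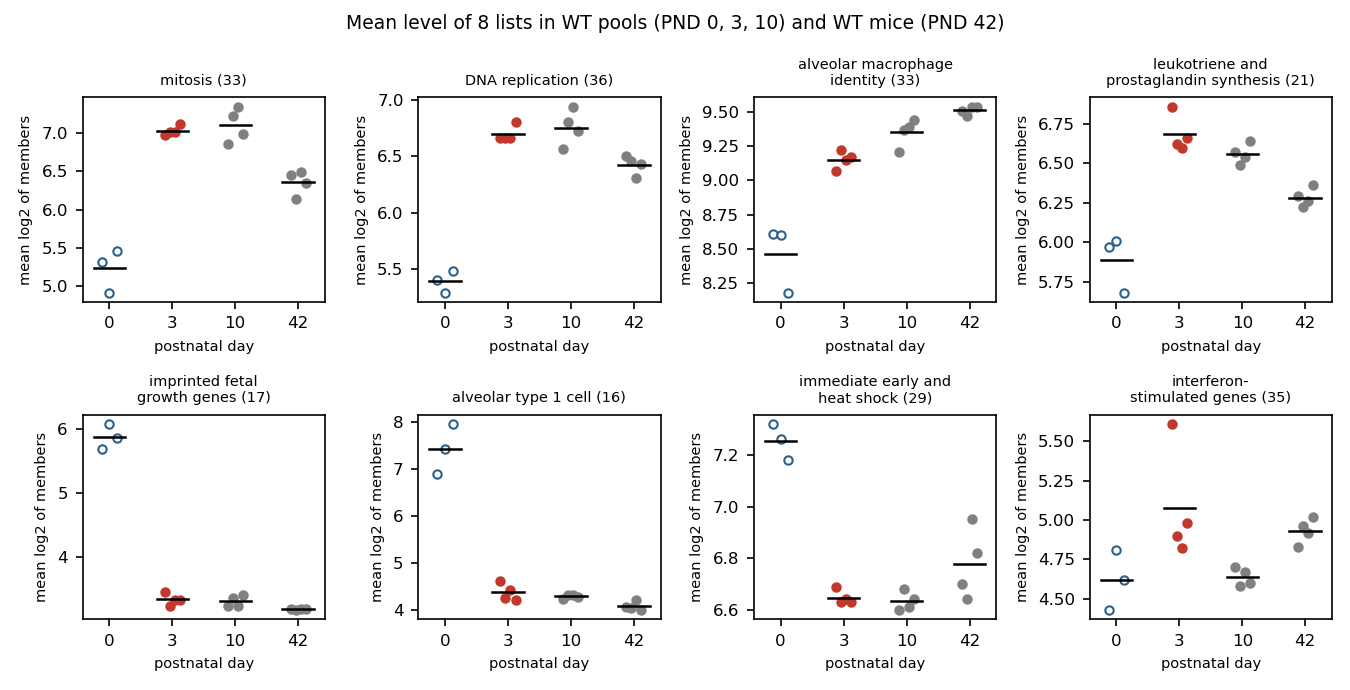
Mean log2 intensity of the measured members of 8 lists (y axis, number of members in brackets) at PND 0, 3, 10 and 42 (x axis), with 1 point per WT pool (PND 0, 3 and 10) or WT mouse (PND 42) and a bar for the group mean. The mitosis mean is 6.97 to 7.12 at PND 3 and 4.92 to 5.46 at PND 0, and the imprinted genes lie at 3.46 or below at every age after PND 0. After centring on 5 macrophage markers the medians of the identity, leukotriene and interferon lists are below 0 between PND 0 and PND 3 (-0.55, -0.10 and -0.61).

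The same step was measured in transgenic littermates (Tg), which share no array with the WT pools. They carry a transgene for Scnn1b, a subunit of the sodium channel ENaC, under the club cell promoter of Scgb1a1. In the Tg pools (4 at PND 3, 3 at PND 0) 1532 features rose and 1935 fell between PND 0 and PND 3 (5.29% and 6.69%), against 1370 and 1506 in WT pools. Of the features that rose in Tg pools 781 rose in WT pools (51% of the Tg and 57% of the WT rises), and 1213 fell in both (62.7% and 80.5%), while 2 WT rises fell and 9 WT falls rose in Tg pools. The difference of the change, Tg minus WT, passed both limits for 604 features (2.09%), of which 199 were among the 2876 WT calls. In a fit on the arrays of these ages alone 49 passed, and 1040 passed without WT PND 0 replicate 3.

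Of cell division genes, 32 of 33 mitosis and 30 of 36 replication genes rose in Tg pools, against 33 and 36 in WT pools, and 0 fell in either. Classical inflammatory genes had 30 rises and 0 falls in Tg pools, against 8 and 6 in WT pools. The log2 change of Thbs1 was 1.26 in Tg pools (adjusted p = 0.101) and -2.87 in WT pools (difference 4.13, adjusted p = 0.00314), that of Ccl2 1.12 (adjusted p = 0.123) and -2.27 (3.38, 0.00971) and that of Socs3 1.2 (adjusted p = 0.00268) and -1.52 (2.72, 0.000425). Vegfa fell in both, but by less in Tg pools, with -1.0 against -3.43 (2.43, adjusted p = 7.08e-06). Hypoxia genes numbered 15 rises and 2 falls in Tg pools, against 6 and 10 in WT pools. Erythroid (0 and 13), skeletal muscle (0 and 28) and milk protein genes (0 and 10) fell in Tg pools, against 0, 3 and 1 falls in WT pools. No test of these list counts was made. They use the adjusted p alone, and the share of all features called in Tg pools at this limit was not counted. The Tg shares of 5.29% and 6.69% above also require 2-fold.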

How the data were processed

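Affymetrix Mouse Gene 1.0 ST arrays held the RNA of lavage macrophages. The authors deposited log2 values made with RMA in Partek 6.5, per the labels, that is after background correction, quantile normalization and median polish. The table gives 1 value per transcript cluster, called a feature here. Quantile normalization makes the arrays alike in their distribution, so that a change of one large group of transcripts shifts the others. Of 35556 features, 6616 numbered below the first annotated feature carry no annotation, were presumed to be array controls and were left out, which leaves 28940. No sample column was unused (0), and the deposited log2 values were not changed before the main test. Arrays give no read depth, and their number, 4 and 3, limits the precision.

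Groups came from genotype and age in the labels. A linear model with 1 mean for each of 10 groups was fitted to all 36 arrays with limma 3.58.1 in R 4.3.3, with moderated two-sided tests and Benjamini-Hochberg adjustment over the 28940 features. The limits, an adjusted p of 0.05 and 2-fold, follow the study's methods. The procedure was tested on simulated data. The 48 gene lists (26 of processes and 22 of cell types or tissues) held 1273 entries, of which 1151 were measured, and 5 lists had under 80% measured: histones, T and NK cell, erythroid, platelet and neural. The pools compared, the lists, the markers and the alternatives were chosen with earlier results of these data known. Named genes were the 12 largest changes in each direction past both limits with no overlap of the groups, up to 4 members of a list and direction past the adjusted p, the cell type markers, and the genes of printed promoters, which were chosen after values were seen. Only features with exactly 1 symbol were named, and the feature of highest mean stood for a gene. Replicate numbers of the 2 ages were compared by the correlation of deviations from the group means (-0.007 to 0.052) and do not pair the pools. Promoters came from the RefSeq table for GRCm38.p6. Alternatives (20 planned and 4 added after the data were seen) are given at the end. Other tools were Python 3.11.15, pandas 2.3.3, numpy 2.4.6 and matplotlib 3.10.9.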

Additional observations from a re-analysis of the deposited data

Results flagged for a closer look

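A pool far from the other 3 of its group, by Dixon's test at its 95% value for 4 samples, was found in 13 of the 187 named genes, and 11 of these pools were WT PND 3 replicate 1. Chance flags about 1 in 20 groups. Over all 28940 features replicate 1 was far above the others in 309 and far below in 232, against 217 to 338 above and 118 to 131 below for the other WT PND 3 pools. Replicate 1 was high in Saa3 (9.15, others 4.22 to 4.52), Thbs1 (7.30, others 3.76 to 3.97), Gbp2 (8.73, others 6.47 to 6.64), Vcan (5.87, others 3.25 to 3.68) and Il1a (10.14, others 9.35 to 9.42), and by little in Adgre1 (9.43, others 9.08 to 9.11) and Cd68 (11.62, others 11.49 to 11.51). It was low in Rnase6 (7.06, others 8.26 to 8.43), Pla2g15 (8.43, others 9.20 to 9.25), Siglecf (8.55, others 9.24 to 9.36) and Ptprc (9.69, others 9.94 to 9.97). WT PND 3 replicate 3 was high in Gprc5a (4.11, others 3.33 to 3.41) and Timp3 (4.08, others 3.56 to 3.63), both near background at this age.

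The change between PND 0 and PND 3 differed between Tg and WT pools, by the interaction contrast in limma at an adjusted p of 0.05, in 36 of the named genes, with no rule on fold. Of all 28940 features 946 passed at this limit. Many of the named genes were chosen for a large WT change, and Saa3 and Lcn2 after their values were seen. Their count is therefore a description. Log2 differences (Tg change minus WT change) were below 0 for 12 genes. These were the red cell gene Slc4a1 -4.73, the genes of lipid handling Fabp1 -2.38, Alox5 -1.02, Ehhadh -1.59 and Cat -1.68, and Coro6 -2.76, Flt1 -1.84, Rrm2 -1.15, Arsb -0.90, Peg3 -1.15, Gpc3 -0.87 and Tgfb3 -1.01. Slc4a1 fell by 2.40 in Tg and rose by 2.34 in WT pools, and Cat changed by -0.61 in Tg and by 1.07 in WT pools.

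The differences were above 0 for 24 genes. Inflammatory and acute-phase genes were Saa3 4.14, Thbs1 4.13, Lcn2 3.84, Acod1 3.70, Ccl2 3.38, Ier3 3.12, Socs3 2.72, Clec4e 2.38 and Slc7a11 1.74. Genes of low oxygen and lactate export were Hilpda 2.68, Vegfa 2.43, Slc16a3 1.23 and Adm 0.83, early response genes Dusp1 2.51 and Egr1 1.73, monocyte and lymphocyte genes Il7r 3.71, Itgam 2.89 and F13a1 2.33, and genes of lipid mediators and lipid uptake Pla2g7 2.81, Abca1 1.84, Lpcat2 1.49 and Trem2 0.80, with Ctsk 1.88 and Chil3 1.27 beside them. In a fit on the arrays of these ages alone 49 features of the whole array passed both limits for this difference, against 604, so that these calls lean on the spread of the other ages. WT PND 3 replicate 1 was high in Saa3, Lcn2, Thbs1 and Acod1, and without it the number of features past both limits was 695.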

How the results depend on the processing

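The direction and side of the threshold of the 187 named genes stayed in 3785 of 3924 values under the alternatives. The adjusted p alone gave 4051 rises, 3481 falls and 946 differences between Tg and WT, a stricter adjusted p of 0.01 gave 261 differences, and group weights 241. A fit on the compared groups alone gave 1266 rises, 1233 falls and 49 differences, and 16 of the named genes no longer passed. Median centring gave 2277 rises and 1187 falls. Leaving out 1 pool in turn gave 1280 to 1650 rises, 1356 to 1848 falls and 429 to 1040 differences, with 1040 without WT PND 0 replicate 3, and 1058 without the 3 pools of high Xist. A filter on dim features gave 1376 rises and 1170 falls, quantile normalization again 1226 and 1461, and 1 feature per gene 1148 and 1177. The replicate block gave 1377 rises, 1501 falls and 553 differences, with deviations of same-numbered pools correlated at -0.007 to 0.052, and 1 named gene no longer passed under it.

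Added after the data were seen, centring on 5 macrophage markers gave 165 rises and 12221 falls, with a median change of -0.958 over all features. Under it the sign of 8 genes that had risen turned: Lipa -0.03, Fdft1 -0.09, Cyp51 -0.10, Il1a -0.02, Thbd -0.07, Slc16a3 -0.06, Ccr2 -0.33 and Cdt1 -0.18. This follows from the subtraction and from the markers chosen, and which scaling is nearer to the RNA per cell was not tested. Values near background and 3 or 4 pools a group limit what small changes can show.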
